A study of Mus musculus with 6 samples.

Results

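The genes described here are 8 transcripts widely used as readouts of tumour necrosis factor and NF-kB signalling, grouped as acute phase proteins (Lcn2, Saa3 and Ptx3), complement (C3 and Cfb), a mitochondrial antioxidant (Sod2) and TNF-induced proteins (Tnfaip2 and Tnfaip8). They were picked by symbol, and all 8 were found among the 48897 genes of the deposited table. Of these, 7 passed the filter on low counts, as did 18563 genes in all, and Lcn2 did not. Saa3 passed only through its TC libraries. The samples were 6 poly(A) RNA-seq libraries of C57BL/6 mouse embryonic fibroblasts, cultured connective tissue cells of the embryo, at passages 5 to 7. The TCZ group had received TNF-ɑ, cycloheximide and z-VAD-fmk, the TC group TNF-ɑ and cycloheximide, and the control group PBS, with 2 libraries in each group. TNF-ɑ is an inflammatory cytokine, cycloheximide stops protein synthesis, and z-VAD-fmk inhibits caspases. The sources used here give no doses or times. No group had TNF-ɑ or cycloheximide alone, so the parts of TNF-ɑ and cycloheximide cannot be told apart. TCZ and TC differ by z-VAD-fmk, so TCZ against TC compares its presence and absence on top of the other agents. No group had z-VAD-fmk alone.

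TNF-ɑ binds its receptor on fibroblasts and frees NF-kB dimers from their cytoplasmic inhibitors, and these dimers then switch on target genes. Some targets respond to NF-kB that is already present, while others, with Lcn2 as a well-known case, also need regulators that the cell has to synthesise first, such as the nuclear NF-kB cofactor encoded by Nfkbiz and the C/EBP factors. The proteins act at different places. Lcn2 encodes lipocalin 2, which withholds iron from bacteria, Saa3 an acute phase apolipoprotein made outside the liver, and Ptx3 a long pentraxin that recognises microbes and damaged matrix. C3 is the protein on which all complement pathways converge, Cfb supplies the protease of the alternative pathway, Sod2 converts superoxide in mitochondria, Tnfaip2 is related to the exocyst and shapes cell protrusions, and Tnfaip8 belongs to a family of lipid-binding proteins linked to cell survival.

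The upstream sequences are shown to set the members' values beside the motifs of NF-kB and C/EBP, the factors named above. RefSeq promoter entries on build GRCm38.p6 matched 6 of the 8 genes, and the 250 bases before each start were searched on both strands. The C/EBP core, spelled TTGCNNAA, was found in 4 of these 6 genes (66.7%), namely Lcn2, Saa3, Ptx3 and C3, beside 9.56% of 32851 promoters of the same length. The 60 bases around each match are given 5′ to 3′ on the strand of the gene, with the match in capitals, which can be the core or its reverse complement. They lie at chr2:32387922-32387981 (minus), chr7:46715742-46715801 (minus), chr3:66219804-66219863 (plus) and chr17:57228148-57228207 (minus), and the match begins 216, 99, 57 and 45 bases before the start in Lcn2, Saa3, Ptx3 and C3.
Lcn2: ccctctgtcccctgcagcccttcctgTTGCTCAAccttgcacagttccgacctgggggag
Saa3: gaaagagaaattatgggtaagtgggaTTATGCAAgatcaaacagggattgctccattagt
Ptx3: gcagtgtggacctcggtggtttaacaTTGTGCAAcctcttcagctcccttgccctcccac
C3: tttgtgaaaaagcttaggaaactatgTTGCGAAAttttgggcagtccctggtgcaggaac

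The NF-kB consensus was matched in the other 2 of these 6 genes (33.3%), Sod2 and Tnfaip2, beside 7.25% of all promoters. It was spelled GGGRNNYYCC, where R is A or G, Y is C or T and N is any base, and could match on either strand. The match begins 83 bases before the start of Sod2 and 24 before that of Tnfaip2, counted from the RefSeq starts, and no match overlapped a C/EBP core. Their full 250-base windows follow, at chr17:13007589-13007838 (plus) and chr12:111442411-111442660 (plus), with the match in capitals. The deposited table starts Tnfaip2 further upstream, at 111442447, so most of its window, the match included, lies inside the deposited gene span. The AP-1 core, spelled TGANTCA, was in 0 of the 6 windows and in 6.75% of all promoters. A match is a run of letters and not a site shown to be bound, and the choice of the C/EBP windows was made after the matches were seen. A window without a match does not show that a gene lacks sites, because variant spellings and sequence outside the 250 bases were not searched.
Sod2: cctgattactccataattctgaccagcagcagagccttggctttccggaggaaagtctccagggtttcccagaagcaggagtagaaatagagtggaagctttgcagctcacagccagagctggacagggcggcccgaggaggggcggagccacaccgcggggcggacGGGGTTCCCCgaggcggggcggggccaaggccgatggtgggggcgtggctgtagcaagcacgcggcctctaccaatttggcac
Tnfaip2: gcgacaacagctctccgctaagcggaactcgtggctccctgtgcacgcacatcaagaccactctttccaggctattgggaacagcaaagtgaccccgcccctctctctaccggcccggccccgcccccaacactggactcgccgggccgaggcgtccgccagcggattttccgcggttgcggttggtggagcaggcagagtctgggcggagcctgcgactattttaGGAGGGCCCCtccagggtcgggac

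Total counts per library were between 24922627 and 52909926. TCZ 2 and control 2 were the shallowest and stood apart in the U1 RNA Rnu1a1, with 1 and 3 counts against 165 to 274 in the other 4 libraries. They were unlike in a further small RNA, Rn7s1, with 4 counts in TCZ 2 and 1338 in control 2, against 4916 to 6106 in the others. Results are also given without TCZ 2 and control 2 where that changes a call. All 10 fibroblast markers averaged 1 CPM or more in each group, where CPM is a library-size-scaled count that is not corrected for gene length. They summed to 23697 to 26079 CPM in TCZ, 17998 to 18584 CPM in TC and 25146 to 27138 CPM in control, with 3 lower and 1 higher in TCZ against control and 7 lower and 1 higher in TC against control. The 13 macrophage and leukocyte markers summed to 25.1 to 27.6 CPM in TCZ, 12.3 to 14.9 CPM in TC and 15.8 to 16.0 CPM in control, with S100a9 at 0 counts in all 3 groups. Of the 9 tested, 3 were higher and 1 lower in TCZ against control, and 1 was higher and 1 lower in TC against control. The 7 hepatocyte markers summed to less than 1 CPM in every library, and Ttr, Serpina1a and Fabp1 were at 0 counts throughout. The 8 epithelial markers summed to 13.5 to 17.9 CPM in TCZ, 75.8 to 82.7 CPM in TC and 16.8 to 19.4 CPM in control, with Krt19 the main part of the sum. Of the 6 epithelial markers tested, 1 was higher and 1 lower in TCZ against control, and 5 were higher and 0 lower in TC against control. Cldn4 and Krt8, higher in TC, passed the low-count filter only with their TC libraries, and Epcam, higher in both, only with treated libraries. The 7 endothelial markers summed to 56.6 to 57.6 CPM in TCZ, 141 to 148 CPM in TC and 12.6 to 13.2 CPM in control. Most of the TC sum was Kdr. In contrast, Pecam1 had 10.8 ± 0.09 CPM in TCZ, 0.14 ± 0.06 CPM in TC and 0.077 ± 0.079 CPM in control (SD, n = 2). Tie1 was at 0 counts in TC and in control. Of the 6 endothelial markers tested, 3 were higher and 0 lower in TCZ against control. In TC against control, 2 of them were higher and 1 lower. Pecam1, higher in TCZ, passed the low-count filter only through its TCZ libraries. Beside these marker counts, 31.5% of all genes tested were higher and 28.6% lower in TCZ, and 31.5% and 29.1% in TC. In bulk RNA, fewer cells of a type and less RNA per cell cannot be told apart.

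Saa3 is described on its own, because it entered the tested set only through its TC libraries. Of the other 6 tested genes, 6 were higher in TCZ and 5 in TC against control, and none was lower in either comparison. Over all genes tested, 31.5% were higher, 28.6% lower and 60.1% changed in either direction in TCZ, and 31.5%, 29.1% and 60.7% in TC, by the same test (edgeR's quasi-likelihood test with Benjamini-Hochberg adjustment, adjusted p below 0.05, used throughout). The median log2 fold change of the 6 genes was 1.29 in TCZ and 1.17 in TC, beside 0.048 and 0.025 over all genes tested. Both comparisons share the control libraries. In TCZ against TC, 1 of the 6 was higher (Sod2) and 1 was lower (C3), with a median of 0.12, while 28.2% of all genes tested were higher, 27.9% lower and 56.1% changed in either direction (median 0.017). The libraries of TCZ lay above both control libraries for all 6 genes, and those of TC for 5, the exception being Sod2, while non-overlap in this direction held for 40.6% and 40.7% of all genes tested.

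**Figure D1:**
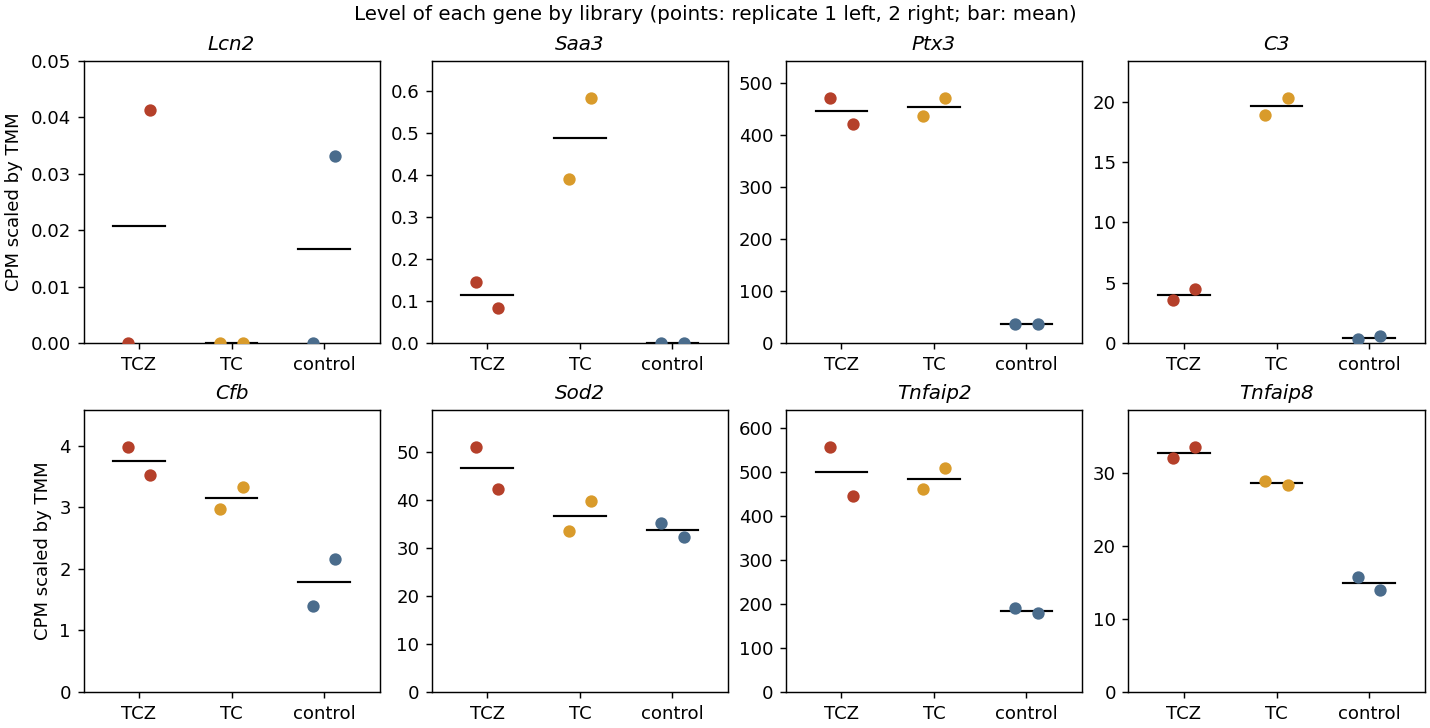
CPM scaled by TMM (vertical axes, starting at 0) of the 8 genes in the 2 libraries of TCZ, TC and control, with points for libraries and bars for group means. Ptx3, Tnfaip2 and Tnfaip8 stood at similar heights in both treated groups, C3 and Saa3 were highest in TC, Sod2 was highest in TCZ, and Lcn2 rests on a single count in 2 libraries.

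Lcn2 (chromosome 2, 32384637 to 32387739, minus strand, mm10) was not detectable as induced at this depth. It had 0 and 1 counts in TCZ, 0 and 0 counts in TC, and 0 and 1 counts in control. A count of 0 allows up to 3 counts, or 0.0618 and 0.0604 CPM in the 2 TC libraries. No group had more than a single count of it in a library. Of the genes tied to it, the lipocalin receptor gene Slc22a17 had 3.98 ± 0.41 CPM in TCZ, 4.45 ± 0.32 CPM in TC and 3.22 ± 0.002 CPM in control (SD, n = 2 here and below). Lrp2, an endocytic receptor that also takes up lipocalin 2, rose to 85.8 ± 5.44 CPM in TCZ and 115 ± 4.62 CPM in TC, against 49.4 ± 0.91 CPM in control. Mmp9, the gelatinase that lipocalin 2 binds, rose to 30.8 ± 4.47 CPM in TCZ and 110 ± 4.74 CPM in TC, against 6.28 ± 0.30 CPM in control.

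Saa3 (chromosome 7, 46711998 to 46715676, minus strand) had no reads in control and a low level after treatment. It had 7 and 2 counts in TCZ, 19 and 29 counts in TC, and 0 and 0 counts in control. Both TC libraries lay above both TCZ libraries, and these above control. Set against a floor of 3 reads over the control group, it was at least 3.25-fold higher in TCZ (adjusted p = 0.0148) and at least 12.8-fold higher in TC (adjusted p = 0.000252), and the 95% counting intervals of these ratios began lower, at 2.14 and 10.02. Its TC libraries admitted it to these tests; with no low-count filter the adjusted p was 0.0133 in TCZ and 1.2e-05 in TC, and in a fit of TCZ and control alone it was not tested. The TCZ call ended without control 1 (adjusted p = 0.102), without control 2 (0.0562), without TCZ 1 (0.0951) and without control 2 and TCZ 2 (0.0565). The ratio of TCZ to TC was 0.253 with a 95% counting interval of 0.109 to 0.522, and its adjusted p of 0.0485 lay just inside the threshold. That call was lost in 11 of 14 alternative settings, no low-count filter among them (0.0675), with adjusted p between 0.0288 and 0.259. The paralogs Saa1 and Saa2, which can share reads with Saa3, had at most 1 and 5 counts in a TCZ library and 0 counts in TC and control.

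Ptx3 (chromosome 3, 66219887 to 66225806, plus strand) had the highest treated level per gene length of the set. It reached 471 and 421 CPM in TCZ and 437 and 472 CPM in TC, against 36.7 and 36.5 CPM in control. The treated libraries overlapped each other and lay far above both controls. The log2 fold change was 3.61 ± 0.08 (SE) in TCZ (adjusted p = 2.04e-19) and 3.63 ± 0.08 in TC (adjusted p = 2.95e-19), about 12.2-fold and 12.4-fold. TCZ and TC did not pass as different, at -0.027 ± 0.074 with a 95% interval of -0.18 to 0.13 (adjusted p = 0.775). Ptx3 lies inside Veph1, which is on the opposite strand, and the sources used here do not say whether counting used strand. Veph1 had 50 counts at most in any library, while Ptx3 had at least 1101.

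Other acute phase genes gave few reads in these fibroblasts, and 8 of 25 were tested. Of these 8, 4 were higher in TCZ and 3 in TC, and none was lower, with medians of 0.94 and 1.34. With library totals as the only scaling, 3 and 2 were higher. Itih4, higher in TCZ, passed the low-count filter only with its TCZ libraries, and Hpx, higher in both, only with treated libraries. Among all genes tested, 31.5% were higher and 28.6% lower in TCZ, and 31.5% and 29.1% in TC. Serpina3g, a serine protease inhibitor with close paralogs that can share reads, rose to 4.53 ± 1.32 CPM in TCZ and 36.5 ± 1.47 CPM in TC, against 2.89 ± 0.79 CPM in control. Its log2 fold change was 0.75 ± 0.18 in TCZ and 3.70 ± 0.16 in TC, and TCZ against TC gave -2.95 ± 0.15 (adjusted p = 3.32e-13). Cp, the copper protein ceruloplasmin, passed in TC at 0.91 ± 0.35 (adjusted p = 0.0305). The neuronal pentraxin genes Nptx1 and Nptx2 rose by 3.25 ± 0.11 and 2.32 ± 0.13 in TCZ and by 3.51 ± 0.10 and 1.81 ± 0.13 in TC. In the list of pentraxins, lipocalins and their partners, 5 of 7 tested genes were higher and 0 lower in TCZ, and 5 were higher and 1 lower in TC.

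C3 (chromosome 17, 57203967 to 57228136, minus strand) was lower in TCZ than in TC in every setting run. It had 3.53 and 4.47 CPM in TCZ and 18.9 and 20.3 CPM in TC, against 0.289 and 0.564 CPM in control, from 171 and 108, 918 and 1009, and 14 and 17 counts. The 3 groups did not overlap. The log2 fold change against control was 3.29 ± 0.25 in TCZ (adjusted p = 1.82e-10) and 5.61 ± 0.21 in TC (adjusted p = 1.12e-15). TCZ lay below TC at -2.32 ± 0.15 (95% interval -2.64 to -2.005, adjusted p = 3.01e-11), which is 0.200 of the TC level, and 27.9% of all genes tested were lower in this comparison. The difference was between -2.52 and -2.14 in 15 alternative settings and passed in each. The summed epithelial markers were also higher in TC than in TCZ and control, and the fibroblast sum was lowest in TC. The endothelial sum was likewise highest in TC, mostly through Kdr, while Pecam1 was highest in TCZ. Of the 6 endothelial markers tested, 3 were higher and 2 lower in TCZ against TC. Pecam1, among those higher, passed the low-count filter only through its TCZ libraries. The part of these cell type markers in the C3 and Saa3 levels was not tested.

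Cfb (chromosome 17, 34856374 to 34862514, minus strand) rose less than C3 under both treatments, about 2.16-fold in TCZ and 1.80-fold in TC. It had 3.98 and 3.52 CPM in TCZ and 2.97 and 3.32 CPM in TC, against 1.40 and 2.16 CPM in control. Both treated groups lay above control, and TCZ lay above TC without overlap. The log2 fold change was 1.11 ± 0.26 in TCZ (adjusted p = 0.000807) and 0.85 ± 0.25 in TC (adjusted p = 0.00649), and the TC call ended without control 1 (0.55, adjusted p = 0.136). TCZ against TC gave 0.26 ± 0.24 with an interval of -0.24 to 0.76 (adjusted p = 0.367), and groups without overlap in either direction made up 78.5% of all genes tested.

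Few of the other complement genes moved in TC. Over all genes tested, 31.5% were higher and 28.6% lower in TCZ, and 31.5% and 29.1% in TC. In TCZ against TC these shares were 28.2% and 27.9%. Of 16 tested components, 6 were higher and 0 lower in TCZ (median 0.45), while 2 were higher and 2 lower in TC (median -0.18). Between TCZ and TC, 9 were higher in TCZ and 0 lower (median 0.79), a count that was 5 without control 2 and TCZ 2. Masp2 and Colec11, higher in TCZ in both comparisons, passed the low-count filter only with their TCZ libraries. C4a did too, but was not called. With library totals alone the TCZ count against control became 4 higher and 1 lower. C4b, whose product forms the classical convertase and which has the near-identical copy C4a, rose by 2.53 ± 0.37 in TCZ and 1.63 ± 0.37 in TC. Cfp, which encodes the convertase stabiliser properdin, had 4.16 ± 0.97 CPM in TCZ, 0.95 ± 0.32 CPM in TC and 1.41 ± 0.40 CPM in control, and rose in TCZ (1.55 ± 0.31, adjusted p = 0.000196). C1s1, a classical pathway protease, rose in TCZ by 0.40 ± 0.15 (adjusted p = 0.025). Masp1, a lectin pathway protease, and Colec12, a scavenger collectin, fell in TC, at -0.53 ± 0.10 and -0.23 ± 0.07. Colec12 rose in TCZ (0.21 ± 0.07) under TMM scaling. Library totals alone shifted all log2 fold changes of TCZ against control by a median of -0.20, about the size of this rise.

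Receptors and regulators of complement moved in both directions, as did all genes tested. Of 13 tested, 4 were higher and 2 lower in TCZ (2 and 4 with library totals alone). In TC, 1 was higher and 2 lower (1 and 5). The shares over all genes tested were 31.5% higher and 28.6% lower in TCZ, and 31.5% and 29.1% in TC. Cd55, which dissociates convertases on the cell surface, fell to 19.2 ± 2.50 CPM in TCZ, against 50.4 ± 1.62 CPM in control (-1.41 ± 0.09, adjusted p = 6.37e-12). In TC it had 46.8 ± 0.01 CPM and did not pass (-0.11 ± 0.08, adjusted p = 0.279). Clu, a secreted inhibitor of the terminal complex, rose by 2.36 ± 0.21 in TCZ and 0.91 ± 0.22 in TC. Itgam, the alpha chain of a receptor for C3 fragments and also a macrophage marker, had 4.74 ± 1.66 CPM in TCZ, 0.40 ± 0.04 CPM in TC and 0.48 ± 0.21 CPM in control, and rose in TCZ by 3.34 ± 0.39. The summed macrophage and leukocyte markers, of which Itgam is one, were also highest in TCZ. Of the 9 tested against control in TCZ, 3 were higher, Itgam among them, 1 was lower (Cd14) and 5 did not pass. The part of these markers in the complement receptor counts was not tested. Cr1l, a regulator of C3 convertases, and C1qtnf6, which encodes a C1q-related secreted protein, fell in TC, at -0.38 ± 0.08 and -1.01 ± 0.09, and C1qtnf6 also fell in TCZ (-0.77 ± 0.10).

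**Figure D2:**
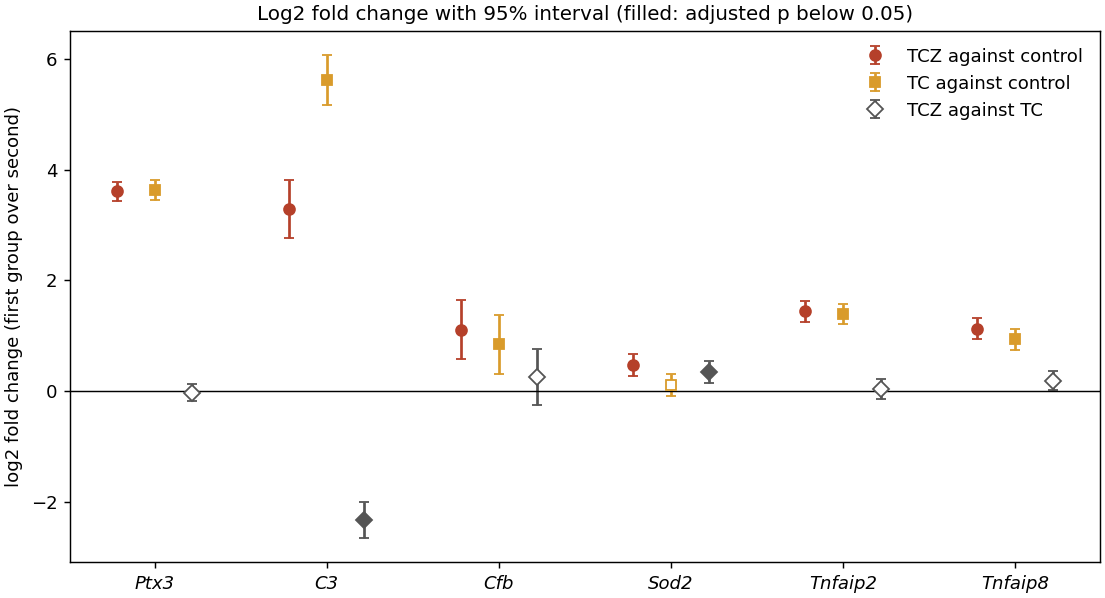
Log2 fold change with its 95% interval (vertical axis) for 6 genes in TCZ against control, TC against control and TCZ against TC, filled where adjusted p was below 0.05. Saa3 is left out because control had 0 counts, and Lcn2 because it was not tested. C3 is the only one of the 6 whose TCZ against TC value lies far below 0, at -2.32.

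Sod2 (chromosome 17, 13007839 to 13018119, plus strand) was the least changed of the 7 tested genes against control. It had 51.1 and 42.3 CPM in TCZ and 33.5 and 39.8 CPM in TC, against 35.3 and 32.3 CPM in control. TC and control overlapped, and both TCZ libraries lay above the other 4. The log2 fold change was 0.47 ± 0.10 in TCZ (adjusted p = 0.000243), a 1.39-fold rise. In TC it was 0.11 ± 0.10 with an interval of -0.09 to 0.31 (adjusted p = 0.318), and the sign turned with library totals alone (-0.028) and without TC 2 (-0.0090). TCZ was above TC by 0.36 ± 0.10 (adjusted p = 0.00313), beside 28.2% of all genes tested that were higher in TCZ. This last call was lost without TC 1 (adjusted p = 0.108) and without TCZ 1 (0.123).

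Of the 23 other superoxide and peroxide clearing genes, all tested, 6 were higher and 5 lower in TCZ (median 0.056), and 3 were higher and 14 lower in TC (median -0.25). With library totals alone the counts were 3 and 11 in TCZ (median -0.14) and 3 and 18 in TC. In TCZ against TC, 16 were higher and 4 lower (median 0.29), the direction in which Sod2 also differed. Of all genes tested, 31.5% were higher and 28.6% lower in TCZ, and 31.5% and 29.1% in TC. In TCZ against TC these shares were 28.2% and 27.9%. Sod1, the cytosolic superoxide dismutase gene, had 94.6 ± 3.99 CPM in TCZ and 56.6 ± 1.93 CPM in TC, against 75.9 ± 0.59 CPM in control. Sod3, the extracellular form, fell by 0.80 ± 0.12 on the log2 scale in TCZ and by 1.04 ± 0.11 in TC. Gsr, which regenerates reduced glutathione, had 17.1 ± 0.68 CPM in TCZ and 9.88 ± 1.17 CPM in TC, against 27.95 ± 0.49 CPM in control, and fell in both. Msrb2, a mitochondrial methionine sulfoxide reductase gene, fell by 1.02 ± 0.30 in TCZ and by 2.09 ± 0.31 in TC.

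Tnfaip2 (chromosome 12, 111442447 to 111455018, plus strand) was the most abundant of the set per gene length in control and rose in both treatments. It had 556 and 444 CPM in TCZ and 461 and 507 CPM in TC, against 190 and 178 CPM in control. The 2 TCZ libraries enclosed the TC pair, and all 4 lay above control. The log2 fold change was 1.44 ± 0.09 in TCZ (adjusted p = 5.18e-12) and 1.39 ± 0.09 in TC (adjusted p = 8.94e-12). TCZ against TC gave 0.049 ± 0.088 with an interval of -0.13 to 0.23 (adjusted p = 0.656). That value passed at 0.20 without control 2 and TCZ 2 (adjusted p = 0.00494) and at 0.15 with a term for these 2 libraries (adjusted p = 0.0423), and was negative without TCZ 1 (-0.13). An unnamed antisense gene overlaps Tnfaip2 and had 32 counts at most.

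Exocyst and Ral genes, which act in the secretory step to which Tnfaip2 is related, went both ways. Of 13 tested, 2 were higher and 4 lower in TCZ (3 and 3 with RLE scaling), and 6 were higher and 3 lower in TC. In TCZ against TC, 0 were higher and 7 lower (median -0.24). Across all genes tested, 31.5% were higher and 28.6% lower in TCZ, and 31.5% and 29.1% in TC. In TCZ against TC these shares were 28.2% and 27.9%. Exoc8 fell by 2.12 ± 0.10 in TCZ and by 1.01 ± 0.09 in TC, and Exoc1 fell by 1.43 ± 0.08 in TCZ and by 0.43 ± 0.08 in TC. Exoc4 rose by 0.87 ± 0.07 in TCZ and 0.77 ± 0.07 in TC. Exoc6 and Exoc3l4 rose in TC, by 0.96 ± 0.22 and 1.09 ± 0.21.

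Tnfaip8 (chromosome 18, 49979427 to 50093229, plus strand) rose in both treatments with little spread. It had 32.04 and 33.6 CPM in TCZ and 28.9 and 28.4 CPM in TC, against 15.7 and 14.0 CPM in control. The groups did not overlap. The log2 fold change was 1.13 ± 0.09 in TCZ (adjusted p = 3.44e-10) and 0.94 ± 0.09 in TC (adjusted p = 5.87e-09). TCZ against TC gave 0.19 ± 0.09 (interval 0.02 to 0.37) and missed the threshold (adjusted p = 0.0595), while it passed with RLE scaling (0.0365) and with a filter of 50 counts in 2 libraries (0.0139). The relatives Tnfaip8l2 and Tnfaip8l3 had too few counts to be tested, and Tnfaip8l1 had 0.42 ± 0.04 CPM in TCZ, 0.20 ± 0.03 CPM in TC and 0.62 ± 0.20 CPM in control. Unrelated genes named for TNF induction spanned a wide range. Tnfaip3, a ubiquitin-editing inhibitor of NF-kB, had a log2 fold change of 7.97 ± 0.11 in TCZ and 6.40 ± 0.10 in TC, and Tnfaip6, a hyaluronan-binding protein gene, 3.25 ± 0.11 and 1.70 ± 0.11. Tnfaip1, an adaptor of a ubiquitin ligase, fell in TCZ by 0.51 ± 0.07.

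In RPKM, the authors' measure per gene length, the order of levels changed with treatment. In TCZ it was Ptx3 at 218 ± 8.80, Tnfaip2 at 109 ± 13.0, Sod2 at 11.5 ± 1.08, Tnfaip8 at 7.52 ± 0.55, Cfb at 1.28 ± 0.06, C3 at 0.726 ± 0.150, Saa3 at 0.200 ± 0.069 and Lcn2 at 0.024 ± 0.033. In TC it was Ptx3 at 231 ± 12.01, Tnfaip2 at 110 ± 7.34, Sod2 at 9.38 ± 1.12, Tnfaip8 at 6.80 ± 0.11, C3 at 3.68 ± 0.18, Cfb at 1.11 ± 0.09, Saa3 at 0.898 ± 0.249 and Lcn2 at 0. In control, Tnfaip2 came first at 46.3 ± 0.40, followed by Ptx3 at 20.6 ± 1.01, Sod2 at 9.56 ± 0.10, Tnfaip8 at 3.90 ± 0.11, Cfb at 0.702 ± 0.245, C3 at 0.090 ± 0.045, Lcn2 at 0.022 ± 0.031 and Saa3 at 0. Ptx3 stood above Tnfaip2 in both treated groups and below it in control, and C3 stood above Cfb in TC only. The neighbours whose libraries overlapped were Cfb and Saa3 in TC, and Lcn2 and Saa3 in control. The gene model behind the Sod2 value ends at 13018119, whereas GENCODE M21 extends the gene to 13040063, so reads in that stretch may not be in its RPKM.

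**Figure D3:**
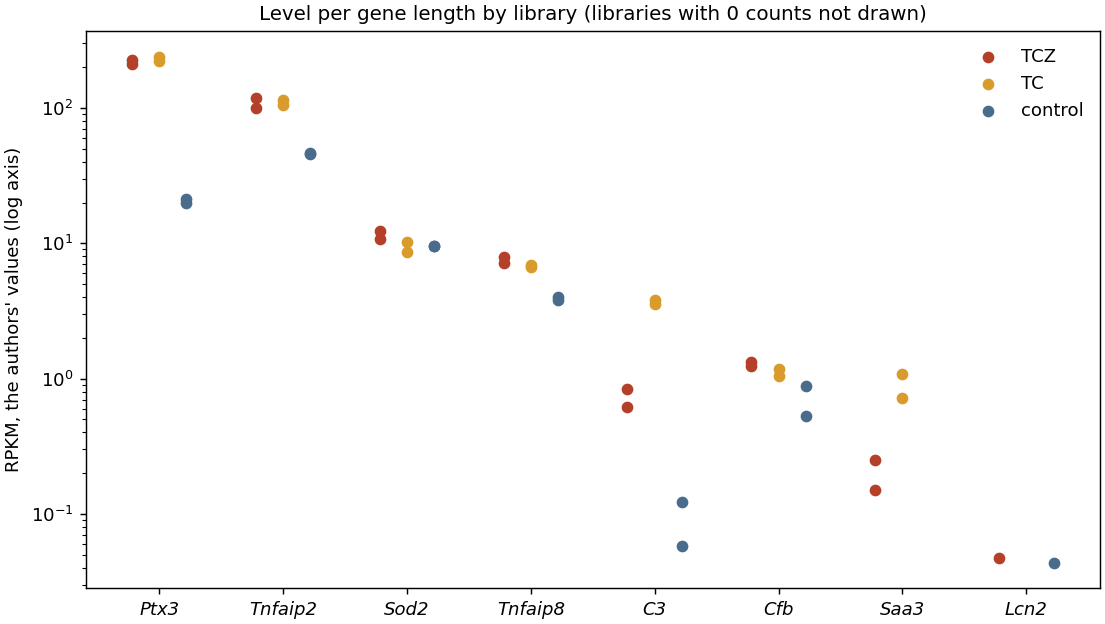
RPKM of the 8 genes (log vertical axis) with 1 point per library for TCZ, TC and control; libraries with 0 counts are not drawn. Ptx3 and Tnfaip2 are the highest of the 8 in every group, and among the points drawn C3 spreads over the widest range, with group means of 0.726 in TCZ, 3.68 in TC and 0.090 in control.

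Known regulators of these genes were tested to place the members beside the pathway. Of 19, 13 were higher and 3 lower in TCZ (11 and 4 with library totals alone), and 13 were higher and 5 lower in TC. The medians were 1.30 and 1.64. Beside these counts, 31.5% of all genes tested were higher and 28.6% lower in TCZ, and 31.5% and 29.1% in TC. The inhibitor gene Nfkbia had 1058 ± 112 CPM in TCZ and 328 ± 18.6 CPM in TC, against 12.5 ± 0.78 CPM in control. The NF-kB subunit genes Nfkb1 and Relb rose by 3.53 ± 0.08 and 3.55 ± 0.10 in TCZ and by 3.54 ± 0.08 and 3.72 ± 0.10 in TC. The nuclear cofactor gene Bcl3 rose by 4.01 ± 0.11 in TCZ and 3.09 ± 0.11 in TC. Nfkbiz had 107 ± 10.9 CPM in TCZ and 88.8 ± 4.81 CPM in TC, against 27.5 ± 1.85 CPM in control. The transcript of this Lcn2 cofactor rose while Lcn2 itself stayed at single counts, and the reason was not tested. Cebpd had 16.6 ± 3.85 CPM in TCZ, 32.9 ± 0.58 CPM in TC and 15.3 ± 0.11 CPM in control, and rose in TC (1.11 ± 0.11, adjusted p = 1.41e-08) but did not pass in TCZ (0.15 ± 0.12, adjusted p = 0.293). Cebpb had 85.8 ± 13.3 CPM in TCZ and 125 ± 18.6 CPM in TC, against 64.2 ± 14.3 CPM in control. In TCZ against TC, Cebpd and Cebpb were lower, at -0.96 ± 0.11 (adjusted p = 1.92e-07) and -0.54 ± 0.12 (adjusted p = 0.00064). Zc3h12a, a ribonuclease that degrades inflammatory transcripts, rose by 1.58 ± 0.10 in TCZ and 1.96 ± 0.10 in TC. The receptor gene Tnfrsf1a fell to 25.0 ± 0.32 CPM in TCZ and 60.3 ± 1.82 CPM in TC, against 102 ± 1.80 CPM in control.

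**Figure D4:**
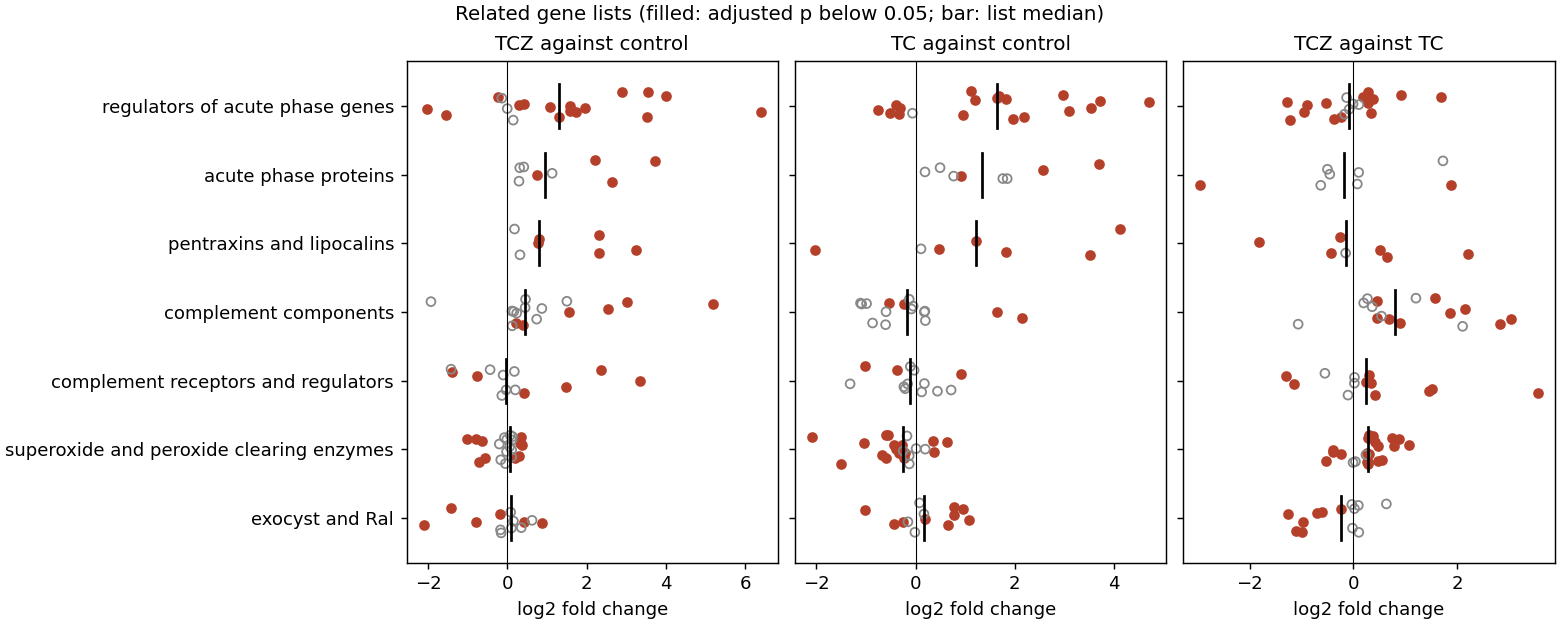
Log2 fold change (horizontal axes) of the tested genes of 7 related lists in TCZ against control, TC against control and TCZ against TC, filled where adjusted p was below 0.05, with a bar at each list median. Regulators have medians of 1.30 and 1.64 against control, while complement components and superoxide and peroxide clearing enzymes have medians of 0.79 and 0.29 in TCZ against TC. Some complement genes, Masp2 and Colec11 among them, passed the low-count filter only with their TCZ libraries.

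The genes with the most similar pattern were sought over the 6 libraries as the smallest root mean square difference of centred log2 CPM, among up to 11816 named genes that averaged 1 CPM or more. Ptx3 was nearest to the NF-kB subunit gene Nfkb1 (difference 0.043) and to Ereg, an epidermal growth factor receptor ligand gene (0.081). Tnfaip2 was nearest to H2-D1, a class I histocompatibility gene (0.042), and Gramd1a (0.073). Tnfaip8 was nearest to the nuclear receptor gene Nr4a2 (0.027) and Taf7 (0.039). Cfb was nearest to the cytokine signalling suppressor gene Socs1 (0.081) and Tmem42 (0.12), and Sod2 to Tspan7 (0.047) and Dctn3 (0.053). Saa3 was nearest to the transcription factor gene Gata3 (0.21) and Nol4 (0.22), a match that depends on the prior count of 2 because of its zeros. C3 had no gene within 0.25, its nearest being Col22a1 (0.27) and Pigz (0.29). These averaged 0.027 and 0.017 CPM in control, so that match depends on the prior count too. In contrast, 5 genes lay within 0.25 of Saa3, 19 of Ptx3, 169 of Cfb, 250 of Tnfaip2, 552 of Tnfaip8 and 2540 of Sod2. The number was thus largest for Sod2, the least changed of these genes, and does not by itself mark a pattern as unusual. These are descriptions over 6 libraries in 3 groups, and genes that share a pattern share the libraries.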

How the data were processed

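The authors deposited 1 table that holds, per the file headers, raw read counts and RPKM for each gene in the 6 libraries. The submitters' processing notes name bcl2fastq, HISAT2 2.1.0, HTSeq and build mm10, and the sources used here state no annotation version or strand setting. The deposited RPKM values matched counts divided by listed gene length and library total, with a largest difference of 4.97e-07.

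The counts were fitted with edgeR 4.0.16 in R 4.3.3. Genes were kept by filterByExpr (minimum count 10) and scaled by TMM, and 1 model of group was fitted over 6 libraries with 3 residual degrees of freedom. glmQLFTest gave p-values, adjusted by Benjamini-Hochberg over 18563 genes, with a threshold of 0.05. The procedure was run on simulated counts with the same spread setting for every gene and 200 genes changed. That is simpler than these data, so it does not check the spread between real libraries. CPM uses TMM-scaled library sizes, and log2 fold changes carry the standard error. Counting intervals (95%, exact binomial) and floors of 3 counts cover counting error only. The labels do not say whether the 2 libraries of a group are separate cultures, so the spread that p-values rest on may be technical.

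Members, lists and the naming rule were chosen with earlier results of these data known. The rule named all 8 members, up to 3 passing genes per list and comparison against control with the largest change and an average of 1 CPM or more, the 2 genes with the most similar pattern, and Nfkbiz, Cebpb, Cebpd, Zc3h12a, Nfkbia and Tnfrsf1a. Slc22a17, Lrp2, Sod1, the Tnfaip8l and Saa relatives, markers, Rnu1a1 and overlapping genes fall outside it and were picked after seeing their values. The alternatives tried were DESeq2 1.42.0, RLE or no scaling, other filters, 2-group fits, a replicate block, a term for control 2 and TCZ 2, leaving libraries out, and a minimum log2 change of 1.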

Additional observations from a re-analysis of the deposited data

How the results depend on the processing

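With Saa3 counted, although its TC libraries admitted it, 7 members were higher in TCZ and 6 in TC against control. Over all genes tested, 31.5% were higher in each comparison. With both libraries of each group kept, the TCZ count was 6 or 7 in the settings run. The TC count was 6, apart from 5 with 50 counts in 2 libraries and 4 at a log2 change of at least 1. Requiring a log2 change of at least 1 left 5438 genes in TC against control, 5965 in TCZ against control and 4327 in TCZ against TC. In TCZ against TC, the count of members higher (1 with all settings at their main choice) was 2 with RLE size factors, with 50 counts in 2 libraries, without control 2 and TCZ 2 and with a term for them, 0 at a log2 change of at least 1, and between 0 and 1 when single libraries were left out. The count lower (2, C3 and Saa3) was 1 with DESeq2, no low-count filter, 50 counts in 2 libraries, without control 2 and TCZ 2 and with a term for them, and 1 when any single library was left out. Signs turned only in differences that had not passed: Ptx3 in TCZ against TC was 0.010 with 50 counts in 2 libraries, 0.054 without control 2 and TCZ 2, 0.021 with a term for them, and between -0.12 and 0.055 with single libraries left out. Tnfaip2 in TCZ against TC was -0.0078 with library totals and between -0.13 and 0.20 with single libraries left out. Sod2 in TC against control was -0.028 with library totals and between -0.0090 and 0.23 with single libraries left out. The cause was not tested. Of the member values under alternatives, 279 kept their direction and side of the threshold, 18 lost their call, 4 gained one and 10 turned sign. Library totals alone shifted all log2 fold changes by a median of -0.14 in TC against control, -0.20 in TCZ against control and -0.06 in TCZ against TC. Same-numbered libraries deviated together at correlations of 0.011, 0.12 and -0.021 across genes in these comparisons, so the numbers were not taken as pairs. TCZ 2 and control 2 nevertheless share low depth and low Rnu1a1 counts. The replicate block left 1 member lower in TCZ against TC, with Saa3 at adjusted p = 0.0828, and changed no other member call. Saa3 was not tested under the filter of 50 counts, nor for TCZ in a fit of TCZ and control alone. Depth limits Lcn2 and Saa3, which had at most 1 and 29 counts in a library.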
